A study of Mus musculus with 6 samples.

Results

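The genes described here are 8 cell-surface and secreted markers of liver progenitor cells and of the ductular reaction, chosen by gene symbol: Epcam, Prom1, Cd24a, Cd44, Tspan8, Ncam1, Gpc3 and Afp. All 8 members were found once each among the 25302 rows of the deposited table. The table holds RNA sequencing of the biliary epithelial cells of mouse liver, which form the lining of bile ducts. The 3 Control samples had the genotype Sox9fl/fl. The 3 Sox9cKO samples had the genotype Sox9fl/fl:AlbCre+/-, so the floxed Sox9 alleles were shared by both groups and Cre was present in Sox9cKO alone. AlbCre is a Cre recombinase driven by the albumin promoter, which is active in hepatocytes and in the fetal hepatoblasts from which hepatocytes and bile duct cells both arise. The age and sex of the mice and the way in which the cells were isolated are not given in the sources used here. It is therefore unknown whether an antibody against one of these surface proteins was used to select the cells.

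A ductular reaction is the expansion of small bile duct-like cells at the portal tracts of an injured liver, and some of its cells have been regarded as progenitors. The proteins described here are used to recognise or sort such cells. EpCAM, prominin-1 (CD133), CD24 and CD44 are epithelial or stem cell surface proteins, tetraspanin-8 organises membrane proteins into microdomains, and NCAM1 is a neural adhesion molecule that also marks reactive ductules. Glypican-3 is a heparan sulfate proteoglycan and alpha-fetoprotein a secreted relative of albumin, and both are typical of fetal liver and hepatocellular carcinoma. Sox9 is a transcription factor of bile duct and progenitor cells.

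Of the 8 genes, Ncam1 rose 16.7-fold in Sox9cKO and was the 1 gene of the 8 that passed the test without a replicate block. Tspan8 and Gpc3 were higher in every Sox9cKO sample than in any Control sample, and Cd44 had a higher mean, but these 3 did not pass that test. With the replicate number as a block, all 3 passed in limma, and Tspan8 and Gpc3 but not Cd44 in edgeR. Tspan8 and Gpc3 also passed with DESeq2. Epcam, Prom1 and Cd24a were abundant in both groups and no difference was detected. Afp was close to absent, with 40 reads in all 6 samples together. Values are normalized reads (the reads of a gene over the size factor of its sample) unless another scale is named. The test was limma on log2(value + 1), with p-values adjusted over all 17153 tested genes by the Benjamini-Hochberg method and a threshold of 0.05. It called 510 genes, 2.97% of those tested, and 349 genes, or 2.03%, were called higher in Sox9cKO. Among the 7 tested members, 1 was called, and it was higher. With the replicate block, 4 of the 7 were called, all higher, against 8.05% of all tested genes in either direction and 5.06% higher. edgeR called 1 member against 2.86% of genes, edgeR with the block 3 against 6.76%, and DESeq2 3 against 7.08%. A limma fit with an endothelial covariate, chosen after seeing the data, called 2 against 3.66%. The members and the gene lists below were chosen with earlier results of these data known, so such shares only describe them.

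The libraries held between 11883496 and 16191990 reads. Sox9 itself was measured at 6211, 6043 and 6293 in Control and at 3363, 3165 and 3340 in Sox9cKO, so every library followed its label, and transcript remained in Sox9cKO at 53.2% of the Control mean. The deleted exons are not given in the sources used here, and reads from the rest of the gene are counted too. Defining markers of bile duct cells were high in every library: the summed level of 12 biliary markers lay between 147000 and 212000. Transcripts of other cells were also present. The summed level of 10 endothelial markers ran from 1492 to 32770 in Control and from 5415 to 33490 in Sox9cKO, lowest in replicate 3 of each group. Within same-numbered samples the sum was higher in Sox9cKO in 3 of 3 pairs, at 10520 and 25800, 32770 and 33490, and 1492 and 5415. All 10 markers had positive log2 fold changes, with a median of 1.07. Positive values were found for 9293 of the 17153 tested genes, whose median was 0.036. None was called by limma, edgeR or DESeq2 without the block, 1 had an unadjusted p under 0.05 (limma), and 1, Vwf, passed with the block (limma, adjusted p 0.0420). Over all tested genes, 17.8% had such an unadjusted p and 8.05% passed with the block. Their part in the results for the 8 genes was not tested beyond the endothelial covariate. Where the summed level of such markers moves with a gene, fewer cells of a type and less RNA per cell cannot be told apart in bulk RNA. The labels do not say whether each sample is a separate mouse, so the p-values measure the spread between these samples.

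Promoter sequences came from RefSeq (GRCm38.p6), in which 6 of the 8 members had an entry. Ncam1 and Cd24a had none. The 250 bases before the start site are shown for 4 genes that span the range of levels and responses described here, from the abundant Epcam to the nearly silent Afp, and whose windows overlap no annotated exon. Each is read 5′ to 3′ on the strand of the gene. Capitals mark matches, on either strand, to the Sox core AACAAT, to ACAAAG as a core shared by Sox and Tcf factors, to GTTAAT as an element of liver promoters, or to the TATA box TATAAA.
Epcam, chr17:87635729-87635978, plus strand: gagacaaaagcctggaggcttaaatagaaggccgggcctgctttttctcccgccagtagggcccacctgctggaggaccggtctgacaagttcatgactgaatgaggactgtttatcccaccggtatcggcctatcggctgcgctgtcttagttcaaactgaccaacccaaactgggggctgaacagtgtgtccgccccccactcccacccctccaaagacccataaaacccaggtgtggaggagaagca
Cd44, chr2:102901666-102901915, minus strand: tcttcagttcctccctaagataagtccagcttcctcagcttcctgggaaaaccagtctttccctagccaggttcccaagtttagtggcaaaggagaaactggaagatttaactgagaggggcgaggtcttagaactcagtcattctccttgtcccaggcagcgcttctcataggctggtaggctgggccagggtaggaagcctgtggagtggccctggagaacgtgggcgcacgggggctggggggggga
Gpc3, chrX:52613975-52614224, minus strand: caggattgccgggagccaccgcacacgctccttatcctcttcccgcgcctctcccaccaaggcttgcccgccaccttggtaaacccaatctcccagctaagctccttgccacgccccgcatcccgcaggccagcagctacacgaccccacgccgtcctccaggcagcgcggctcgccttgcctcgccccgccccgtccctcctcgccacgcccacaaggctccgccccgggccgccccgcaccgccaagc
Afp, chr5:90490464-90490713, plus strand: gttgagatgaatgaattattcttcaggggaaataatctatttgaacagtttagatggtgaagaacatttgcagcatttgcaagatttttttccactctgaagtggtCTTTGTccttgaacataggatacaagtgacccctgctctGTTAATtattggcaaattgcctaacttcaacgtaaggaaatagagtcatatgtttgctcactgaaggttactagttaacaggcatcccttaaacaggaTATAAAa
The Afp window held 1 match to ACAAAG, 1 to the liver promoter element and 1 TATA box, and the Epcam, Cd44 and Gpc3 windows held none of the 4 motifs. Over 32851 windows of the same length, AACAAT was found in 9.42%, ACAAAG in 16.5%, GTTAAT in 6.43% and TATAAA in 12.4%. A match is a run of letters and not a measured binding site. The windows also differed in base composition: the Gpc3 window had 71.6% G and C with 25 CG pairs and the Afp window 36.0% with 1 CG pair, beside medians of 52.4% and 6.0 over all windows. Epcam and Cd44 both had 56.4%, with 8 and 5 CG pairs.

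Levels of different genes were compared per kilobase of the longest annotated transcript. Tspan8 was the most abundant member in both groups, at 3945 ± 616 normalized reads per kilobase in Control and 6796 ± 1210 in Sox9cKO (SD, n = 3). Epcam followed at 3579 ± 321 and 3252 ± 704. In Control, the Tspan8 and Epcam values overlapped, from 3418 to 4622 and from 3215 to 3821, so their order did not exceed the spread. In Sox9cKO they did not overlap, since the lowest Tspan8 value was 5529 and the highest Epcam value 4043. Cd24a was at 2058 ± 211 and 2022 ± 602, Cd44 at 1184 ± 409 and 1837 ± 328, and Prom1 at 862 ± 358 and 846 ± 185 per kilobase. The values of Cd24a and Cd44 overlapped in Sox9cKO, and those of Cd44 and Prom1 overlapped in Control. These 5 genes stood above 96.1% to 99.8% of the 17011 tested genes of known length.

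**Figure D1:**
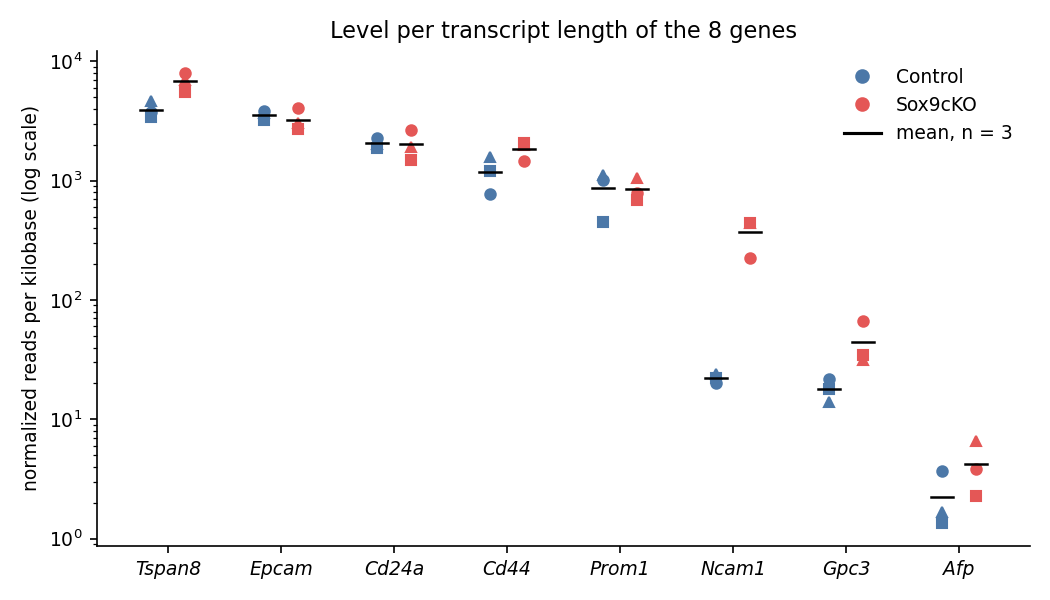
Normalized reads per kilobase of the longest annotated transcript (log axis) for the 8 genes, ordered by their Control mean. Circles, squares and triangles are replicates 1, 2 and 3, blue is Control, red is Sox9cKO, and black lines are means of 3 samples. Ncam1 moves from 22.2 to 371 per kilobase, while the order of the 8 genes is the same in both groups.

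The other 3 genes were far less abundant. Ncam1 moved from 22.2 ± 1.91 normalized reads per kilobase in Control, above 27.5% of tested genes, to 371 ± 126 in Sox9cKO, above 88.6% of them. Gpc3 was at 17.9 ± 3.79 and 44.4 ± 19.6 per kilobase, and Afp at 2.23 ± 1.26 and 4.25 ± 2.17 (SD, n = 3 for each). In Control, the Ncam1 values of 20.2 to 24.1 overlapped with the Gpc3 values of 14.0 to 21.6. In Sox9cKO the lowest Ncam1 value, 225, was above the highest Gpc3 value, 66.9. The plot of levels per transcript length shows that the order of the 8 genes by group mean was the same in Control and Sox9cKO, with Tspan8 first and Afp last.

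Ncam1 (ENSMUSG00000039542), the neural cell adhesion molecule, was measured at 133, 147 and 158 in Control replicates 1 to 3 and at 1478, 2898 and 2924 in Sox9cKO replicates 1 to 3. The lowest Sox9cKO sample was 9.37-fold above the highest Control sample, and the Control samples differed little from each other. The means were 146 ± 12.5 and 2433 ± 827 (SD, n = 3). This is a log2 fold change of 3.99 (SE 0.27, 95% confidence interval 3.36 to 4.62), with an adjusted p of 0.00134 from limma. Ncam1 was higher in 3 of 3 pairs of same-numbered samples, by 11.1-fold, 19.8-fold and 18.5-fold. Each of the 17 alternatives called it, at values from 3.82 to 4.31 on the log2 scale.

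The reads behind these values numbered 453 in the 3 Control libraries together and 7135 in the 3 Sox9cKO libraries. Counting error alone was 7.96% to 8.54% per Control library and at most 2.59% per Sox9cKO library, so the spread within Sox9cKO exceeded it. Gm11149, an annotated antisense gene, overlaps exons of Ncam1. Whether the authors' counting used strand is not given in the sources used here, and reads from the pair cannot then be told apart. Gm11149 was listed at 1.68 to 5.76 in Control and 7.96 to 16.1 in Sox9cKO, far below Ncam1.

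Other cells of the liver also make NCAM1, among them nerve, Schwann and stellate cells. Sox10, the defining Schwann cell factor, was not analysed here. The summed level of the 5 other nerve and Schwann markers was 1250 to 1374 in Control and 1153 to 1400 in Sox9cKO, with most of it from Mbp. The 10 stellate cell and fibroblast markers summed to 1756 to 2395 in Control and 1913 to 2852 in Sox9cKO. This sum was higher in Sox9cKO in each pair of same-numbered samples, at 2395 and 2852, 2232 and 2502, and 1756 and 1913. Of the 10 markers, 4 had positive log2 fold changes. Their median was -0.094, against 0.036 for all tested genes. Among them, Lrat, the retinol-esterifying enzyme that defines stellate cells, was at 34.3 ± 12.1 and 19.6 ± 8.26 (SD, n = 3). None of the tested genes in either marker list was called, by limma, edgeR or DESeq2, and none had an unadjusted p under 0.05. The part of nerve, Schwann and stellate cell transcripts in the Ncam1 values was not tested.

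**Figure D2:**
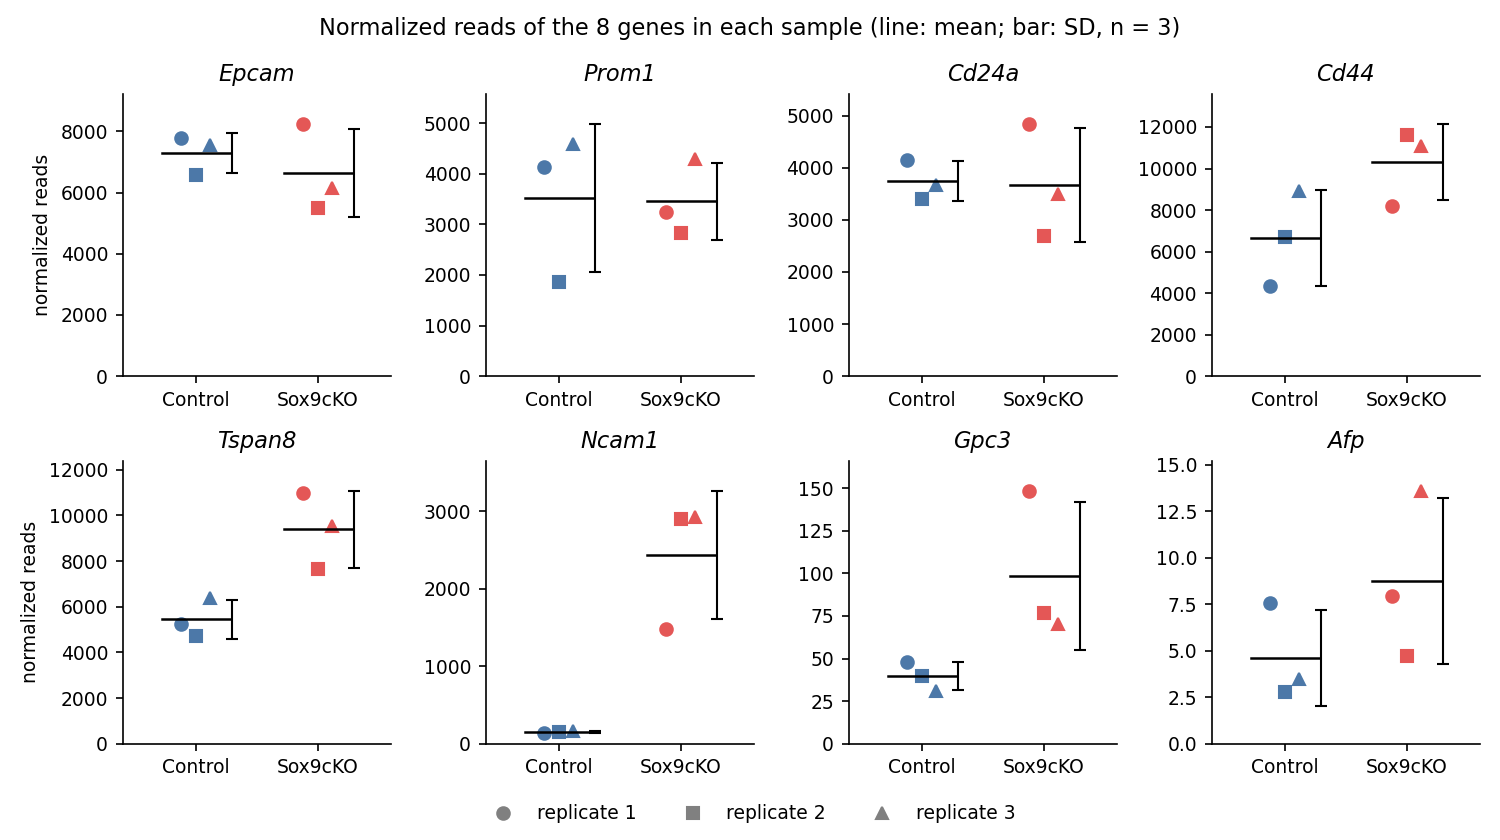
Normalized reads of each gene in each sample on linear axes that start at 0, with Control in blue and Sox9cKO in red. Markers stand for replicates 1 to 3, horizontal lines for means and bars for 1 SD (n = 3). Ncam1, Tspan8 and Gpc3 show no overlap between groups, with Ncam1 between 133 and 158 in Control and between 1478 and 2924 in Sox9cKO.

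NCAM1 was examined beside its family and the enzymes that add polysialic acid to it. Of 10 listed genes, 4 passed the filter on low values and none was called. An unadjusted p under 0.05 (limma) was found for 1 of the 4, against 17.8% of all tested genes. Neither edgeR nor DESeq2 called any of them. Their median log2 fold change was -0.63, against 0.036 for all tested genes, and all 4 had negative values. L1cam, a related adhesion molecule, was at 112 ± 26.9 in Control and 75.8 ± 1.17 in Sox9cKO, and Fgfr1, a receptor that NCAM1 can engage, at 3741 ± 151 and 3073 ± 438. Their log2 fold changes were -0.53 and -0.29 (limma, adjusted p 0.261 and 0.302). Ncam2, the closest paralog, had means of 7.32 and 9.75, and the polysialyltransferases St8sia2 and St8sia4 had 10.9 and 8.71, and 23.3 and 13.8. Ncam2 and St8sia2 were below the filter.

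Tspan8 (ENSMUSG00000034127), a tetraspanin of gut and duct epithelia, was measured at 5240, 4720 and 6383 in Control and at 10964, 7636 and 9556 in Sox9cKO. The groups did not overlap, although Sox9cKO replicate 2 lay close to Control replicate 3. Groups that do not overlap in the upward direction were found for 13.4% of all tested genes and for 3 of the 7 members. Tspan8 had a log2 fold change of 0.78 (SE 0.17, 95% confidence interval 0.37 to 1.19) and did not pass the threshold (limma, adjusted p 0.0680). With the replicate block it passed (limma, adjusted p 0.0140), and each of the 3 pairs was higher in Sox9cKO, by up to 2.09-fold in replicate 1. It also passed with DESeq2 (adjusted p 0.00381) and with the endothelial covariate (limma, adjusted p 0.0316). The antisense gene 4930422I22Rik overlaps Tspan8 and was listed at 18.9 to 45.4 in every sample.

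Other tetraspanins did not show a call. Of 20 listed genes, 18 were tested and none passed (limma), at a median log2 fold change of 0.29. An unadjusted p under 0.05 (limma) was found for 4, or 22.2%, against 17.8% of all tested genes. Neither edgeR nor DESeq2 called any. Under the replicate block 1 of them passed (limma), against 8.05% of all tested genes. Tspan14, which takes part in trafficking of the protease ADAM10, was at 2294 ± 183 in Control and 2811 ± 26.2 in Sox9cKO (SD, n = 3). Cd82, a tetraspanin studied as a metastasis suppressor, was at 1086 ± 248 and 1587 ± 58.8. These are differences of 0.30 and 0.57 on the log2 scale (limma, adjusted p 0.203 and 0.133). Cd9 and Cd81, which are widely expressed, had log2 fold changes of 0.12 and 0.0079.

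Cd44 (ENSMUSG00000005087), the main receptor for hyaluronan, was measured at 4321, 6709 and 8915 in Control and at 8210, 11625 and 11107 in Sox9cKO. The groups overlapped, because Control replicate 3 lay above Sox9cKO replicate 1. Cd44 had a log2 fold change of 0.68 (SE 0.27, 95% confidence interval 0.043 to 1.31; limma, adjusted p 0.250). Within the same-numbered pairs Cd44 was higher in 3 of 3, by 1.90-fold, 1.73-fold and 1.25-fold, and it passed the threshold with the replicate block (limma, adjusted p 0.0326). edgeR with the block did not pass it (adjusted p 0.0512). Leaving out Control replicate 1, the lowest sample, moved the log2 fold change to 0.40.

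Leukocytes carry much CD44. The 7 leukocyte markers in the table summed to 1058 to 1136 in Control and 1512 to 1831 in Sox9cKO, and most of this sum was Csf1r, a macrophage receptor that rose from 761 ± 48.9 to 1450 ± 186 (SD, n = 3; limma, adjusted p 0.0142). Ptprc, which encodes the pan-leukocyte antigen CD45, was at 30.9 ± 9.83 and 10.1 ± 8.11, and Lyz2, of myeloid cells, at 42.2 ± 22.2 and 15.8 ± 7.44. Neither was called by limma without the block. Of the 6 tested leukocyte markers, 1 had a positive log2 fold change. The median of the 6 was -0.57, against 0.036 for all tested genes. An unadjusted p under 0.05 (limma) was found for 4, or 66.7%, against 17.8% of all tested genes. With the replicate block 1 was called higher and 1 lower (limma), against 8.05% of all tested genes. Cd3e, Nkg7 and S100a8 were not analysed here. The part of leukocyte transcripts in the Cd44 values was not tested.

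Of 16 genes for hyaluronan handling and CD44 partners, 14 were tested and 1 was called, against 2.97% of all tested genes. Mmp14, a membrane protease that can cleave CD44, rose by 0.81 on the log2 scale, from 1266 ± 231 to 2194 ± 204 (SD, n = 3; limma, adjusted p 0.0495). It lost its call in all 6 fits that left out 1 sample, where the adjusted p from limma was 0.0822 to 0.127, and in 4 other alternatives. Rdx, which encodes radixin and links membrane proteins such as CD44 to actin, was at 2960 ± 210 and 4032 ± 670 (limma, adjusted p 0.173). The median log2 fold change of the 14 was 0.096, and 7 of them had positive values. For all tested genes these were 0.036 and 9293 of 17153.

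**Figure D3:**
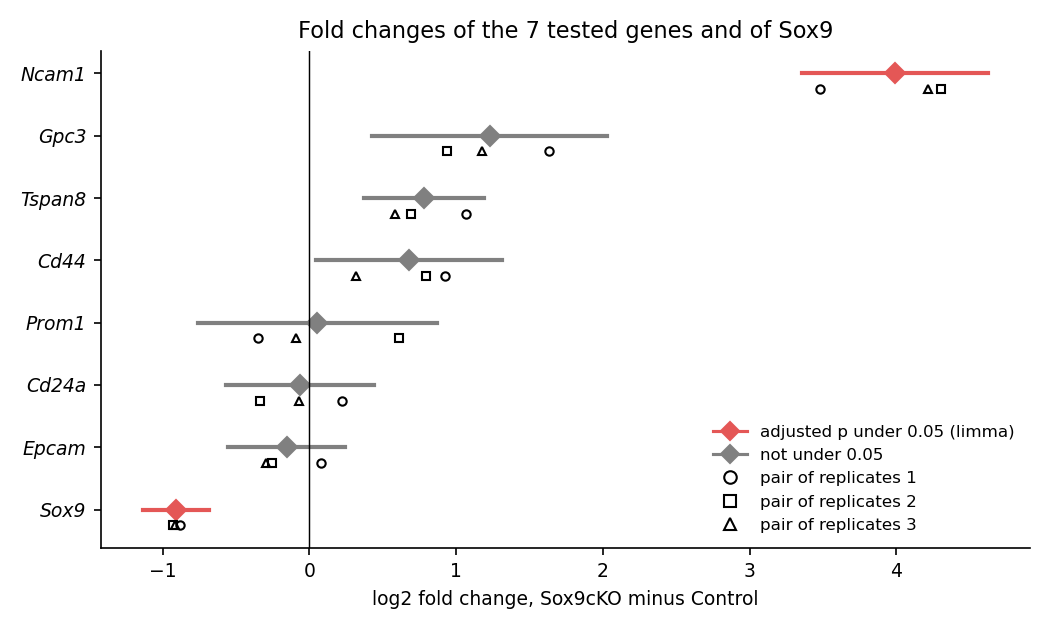
Log2 fold changes (Sox9cKO minus Control) of the 7 tested genes and of Sox9, with diamonds for the limma estimate and lines for its 95% confidence interval. Open markers below each line are the log2 ratios of same-numbered samples. Ncam1 stands at 3.99, the intervals of Gpc3, Tspan8 and Cd44 lie above 0, and those of Prom1, Cd24a and Epcam include 0.

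Gpc3 (ENSMUSG00000055653), the fetal glypican, was measured at 47.9, 39.9 and 31.1 in Control and at 148, 76.5 and 70.2 in Sox9cKO. The groups did not overlap, and Sox9cKO replicate 1 stood above the other two samples of its group. Gpc3 had a log2 fold change of 1.23 (SE 0.34, 95% confidence interval 0.43 to 2.03; limma, adjusted p 0.119). It passed the threshold with the replicate block, at pair folds of 3.09, 1.92 and 2.26 (limma, adjusted p 0.0282), and with DESeq2 (adjusted p 0.0307). The values rested on 127 reads in Control and 292 in Sox9cKO, and the counting error per library was 8.19% to 19.2%.

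Markers of mesothelium, the cell layer on the liver surface, were summed beside Gpc3. The 5 listed ones other than Krt19, a keratin shared with bile ducts, summed to 424 to 540 in Control and 934 to 1883 in Sox9cKO. Most of this was Msln, which encodes mesothelin and rose from 335 ± 53.9 to 1408 ± 505 (SD, n = 3; limma, adjusted p 0.0159). Leaving out 1 sample ended the call of Msln in 4 of 6 fits (without Control replicate 1 or 3 or Sox9cKO replicate 1 or 3; limma, adjusted p up to 0.0709). Upk3b, a uroplakin of mesothelium, had a lower mean in Sox9cKO, at 73.5 ± 7.95 and 41.2 ± 4.69, and Lrrn4 was at 43.3 ± 21.3 and 30.6 ± 12.7. Neither Upk3b nor Lrrn4 was called. With Krt19 counted, 6 mesothelial markers were tested, and 4 of them had positive log2 fold changes. The median of the 6 was 0.36, against 0.036 for all tested genes. The part of mesothelial transcripts in the Gpc3 values was not tested.

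The 9 genes listed with Gpc3 were other glypicans, the heparan sulfate sulfatases Sulf1 and Sulf2, and the enzymes Notum and Furin. Of these 9, 6 were tested, among them Furin, and all 6 had positive log2 fold changes, with a median of 0.69. Over all tested genes, 9293 of 17153 had positive values, and the median was 0.036. Of the 6, 1 was called (limma), against 2.97% of all tested genes. With the replicate block 2 passed (limma), against 8.05%. Sulf2, an extracellular sulfatase that removes sulfate groups from heparan sulfate, rose from 46.4 ± 32.3 to 230 ± 61.8, or by 2.45 on the log2 scale (SE 0.46; SD, n = 3; limma, adjusted p 0.0378). It lost its call with edgeR (adjusted p 0.0594) and in 5 of the 6 fits that left out 1 sample, all but that without Control replicate 2 (limma, adjusted p up to 0.155). Gpc6 was at 57.2 ± 16.8 and 138 ± 40.4 and passed with the replicate block (limma, adjusted p 0.0901, and 0.0314 with the block). Gpc4, another cell-surface glypican, was at 816 ± 120 and 1139 ± 80.6.

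Epcam (ENSMUSG00000045394), the epithelial adhesion molecule by which bile duct cells are most often recognised, was measured at 7796, 6559 and 7551 in Control and at 8249, 5501 and 6155 in Sox9cKO. The groups overlapped, and the Sox9cKO samples included both the highest and the lowest value. Its log2 fold change of -0.16 had a 95% confidence interval from -0.55 to 0.24, or 0.682-fold to 1.18-fold of Control (limma, adjusted p 0.693). Of 14 listed EpCAM partners and cleavage enzymes, 13 were tested and none was called by limma or edgeR, while DESeq2 called 4. An unadjusted p under 0.05 (limma) was found for 8 of the 13, against 17.8% of all tested genes. Groups that did not overlap were found for 8, all of them higher in Sox9cKO, against 13.4% of all tested genes in that direction. With the replicate block 5 passed, all higher, against 5.06% of all tested genes. Adam10, a protease that sheds membrane proteins, was at 1488 ± 67.3 and 2140 ± 197, and Fhl2, a LIM-domain protein that binds the EpCAM intracellular fragment, at 196 ± 23.2 and 592 ± 331. Their limma adjusted p-values were 0.0631 and 0.0844, and 0.0244 and 0.0298 with the block.

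Cd24a (ENSMUSG00000047139), a small glycoprotein anchored to the membrane by a lipid, was measured at 4152, 3394 and 3665 in Control and at 4844, 2681 and 3489 in Sox9cKO. The groups overlapped, and the Sox9cKO values reached both above and below the Control range. Its log2 fold change of -0.063 had a 95% confidence interval from -0.57 to 0.44 (limma, adjusted p 0.919). Cd24a and Epcam ranked the samples alike at both ends, with the highest value of each in Sox9cKO replicate 1 and the lowest in Sox9cKO replicate 2. Red blood cell precursors carry CD24 as well, and the 6 erythroid markers in the table summed to 11.3 to 91.0 over all samples.

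Prom1 (ENSMUSG00000029086), which encodes prominin-1 of membrane protrusions and cilia, was measured at 4139, 1856 and 4583 in Control and at 3239, 2832 and 4300 in Sox9cKO. The groups overlapped, and Control replicate 2 was the lowest of the 6 samples. Its log2 fold change of 0.055 had a wide 95% confidence interval, from -0.76 to 0.87, or 0.592-fold to 1.82-fold of Control (limma, adjusted p 0.959). Its sign was not stable: the value was -0.36 without Control replicate 2. Prom1 was lowest in the samples with the most endothelial transcript, whose part in its values was not tested beyond the covariate. Replicate 2 had the highest summed endothelial level of its group, at 32770 in Control and 33490 in Sox9cKO, and replicate 3 the lowest, at 1492 and 5415. With the endothelial covariate the log2 fold change of Prom1 was 0.32 (limma, adjusted p 0.474). The antisense gene Gm16401 overlaps Prom1 and was listed at 1.99 to 7.56.

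Of 10 genes listed with prominin and membrane protrusions, all were tested, and 1 rose and 1 fell (limma). This is 20.0%, against 2.97% of all tested genes called. An unadjusted p under 0.05 (limma) was found for 6, or 60.0%, against 17.8% of all tested genes. With the replicate block 3 were called higher and 1 lower (limma), against 8.05% of all tested genes. Ttyh1 and Ttyh2 encode multipass membrane proteins of the tweety family. Ttyh1 was measured at 80.7, 64.0 and 50.7 in Control and at 9.95, 3.78 and 3.40 in Sox9cKO, and fell by 3.41 on the log2 scale (SE 0.44; limma, adjusted p 0.00969). It passed the filter on low values through its Control samples, since the Sox9cKO mean of 5.71 is below 10, so the size of its fall depends on the pseudocount (-2.74 with a pseudocount of 5). It was not tested at a minimum mean of 50. Ttyh2 moved the other way, from 758 ± 107 to 1867 ± 390, a log2 fold change of 1.29 (SE 0.19; SD, n = 3; limma, adjusted p 0.0151). Without Control replicate 1 both lost their calls (limma, adjusted p 0.0672 and 0.0749), and without Sox9cKO replicate 1 Ttyh2 did (0.0573). Prom2, the paralog of Prom1, was at 42.3 ± 8.05 and 23.2 ± 9.59 and was not called.

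Afp (ENSMUSG00000054932), the fetal counterpart of albumin, did not pass the filter of a mean of 10 normalized reads and was left out of the test. It had 9, 3 and 3 reads in the Control libraries and 8, 5 and 12 reads in the Sox9cKO libraries. The exact Poisson 95% interval was 8.40 to 24.7 for the 15 Control reads and 16.2 to 36.9 for the 25 Sox9cKO reads. The intervals cover counting error only. The normalized values of the groups overlapped, from 2.78 to 7.57 in Control and from 4.73 to 13.6 in Sox9cKO. In a fit without the filter, Afp differed by 0.79 on the log2 scale (limma, adjusted p 0.500).

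The neighbours of Afp in the albumin gene family behaved differently from each other. Gc, which encodes the vitamin D binding protein, was measured at 436, 299 and 151 in Control and at 4607, 6544 and 4748 in Sox9cKO. It rose 17.9-fold, or by 4.27 on the log2 scale (SE 0.37; limma, adjusted p 0.00327), and all 17 alternatives called it. Alb, albumin itself, was at 21337 ± 5551 and 29636 ± 7313, and Afm, afamin, at 57.6 ± 15.8 and 69.6 ± 26.1. Neither was called (limma, adjusted p 0.380 and 0.778). Of the 12 tested genes of this family and its regulators, limma without the block called Gc alone, against 2.97% of all tested genes. With the replicate block limma called 1 higher and 1 lower, against 8.05% of all tested genes. DESeq2 called 2, against 7.08%. The 10 hepatocyte markers, in which Alb is the bulk, summed to 19000 to 30330 in Control and 24630 to 38450 in Sox9cKO. The sum was higher in Sox9cKO in each pair of same-numbered samples, at 30330 and 36870, 19000 and 24630, and 20590 and 38450. Of the 10 markers, 7 had positive log2 fold changes, and the median was 0.36. For all tested genes these were 9293 of 17153 and 0.036. The part of hepatocyte transcripts in the values of Gc and Afp was not tested. Serpina1a and Serpina1c, near-identical antitrypsin paralogs whose reads may be split uncertainly, rose within that list, while Cyp2e1 and Cps1, defining enzymes of hepatocytes, were at 66.5 and 69.9 and at 52.6 and 98.9 and were not called.

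Among 20 further surface markers of biliary or progenitor cells, 17 were tested, 1 rose and 1 fell (limma). This is 11.8%, against 2.97% of all tested genes called. Igdcc4, known as Nope and described as a surface marker of fetal liver progenitors, was measured at 203, 180 and 204 in Control and at 521, 375 and 472 in Sox9cKO. It rose by 1.21 on the log2 scale (SE 0.17; limma, adjusted p 0.0122). Anpep, the aminopeptidase CD13 of apical membranes, fell from 1317, 949 and 919 to 555, 419 and 488, a log2 fold change of -1.11 (SE 0.18; limma, adjusted p 0.0243). Leaving out 1 sample ended the call of Igdcc4 in 3 of 6 fits (without Control replicate 1 or 3 or Sox9cKO replicate 3; limma, adjusted p up to 0.0613). It ended that of Anpep in 4 of 6 (without Control replicate 1 or 3 or Sox9cKO replicate 2 or 3; adjusted p up to 0.0787). Lgr5, a stem cell receptor, was below the filter at 7.68 and 9.14. Cdh1, encoding E-cadherin, had a log2 fold change of -0.18. Of 12 oncofetal and hepatoblast genes, 7 were tested and 1 was called, against 2.97% of all tested genes. Peg3, an imprinted zinc finger gene, was at 3869 ± 1086 in Control and 831 ± 152 in Sox9cKO (SD, n = 3). It fell by 2.19 on the log2 scale (limma, adjusted p 0.00541). Ahsg, fetuin-A, was at 593 ± 210 and 1380 ± 259 and passed with the block (limma, adjusted p 0.0770, and 0.0367 with the block).

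**Figure D4:**
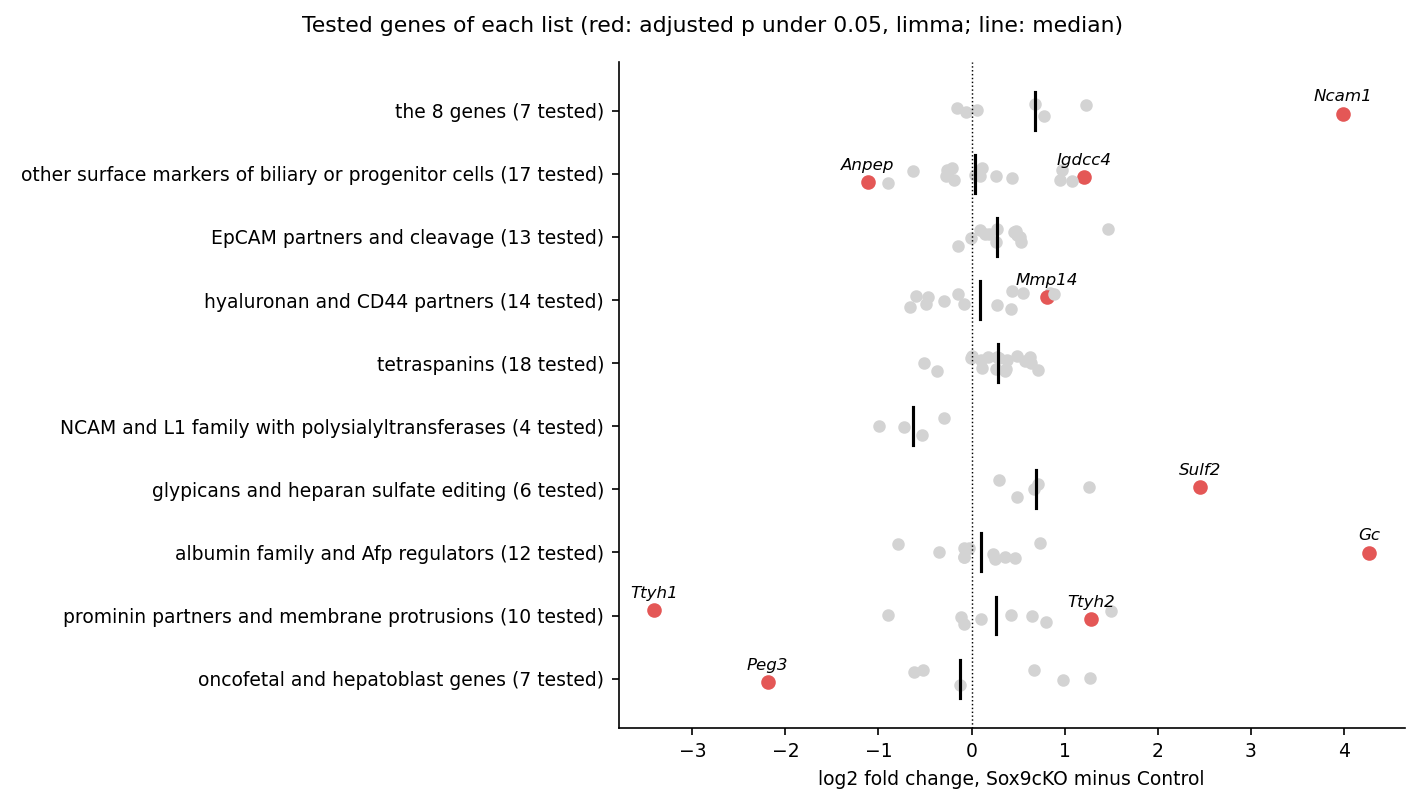
Log2 fold changes (Sox9cKO minus Control) of the tested genes in each list, one point per gene, with the list median as a black line and called genes in red. Ncam1 and Gc lie near 4, Ttyh1 and Peg3 below -2, and of the 98 tested genes of the 9 other lists 86 lie between -1 and 1.

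Over the 9 other lists together, 98 of 119 genes were tested, and 5 were called higher and 3 lower, 8.16% of them against 2.97% of all tested genes. Because the lists were chosen with earlier results of these data known, these shares are a description and not a test of enrichment. Their median log2 fold change was 0.24, against 0.036 for all tested genes. With the replicate block 17 were called higher and 6 lower, while 8.05% of all tested genes were called. The plot of the lists shows the limma calls without the block on all 6 samples. In that test the called genes stood apart singly, and no list had more than 2 of them. With the replicate block limma called 5 genes of the EpCAM list and 4 of the prominin list. It also called 4 of the further surface markers and 3 of the hyaluronan list. edgeR with the block called 3 genes in each of the EpCAM, prominin and further surface marker lists. DESeq2 called 4 genes of the EpCAM list and 3 of the prominin list. Without Control replicate 2, limma also called 3 genes of the prominin list.

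The genes whose pattern over the 6 samples was most like that of a member were found by Pearson correlation of log2 values among 11081 genes. These values describe 6 libraries that also share the group difference, and 14 to 231 genes per member had an r over 0.95. For Ncam1 it was Pcsk6, a proprotein convertase, at 26.1, 26.9 and 28.8 in Control and 97.5, 114 and 135 in Sox9cKO. For Tspan8 it was Spint2, an inhibitor of membrane serine proteases, at 2798, 2636 and 3059 in Control and 4183, 3475 and 4028 in Sox9cKO. For Gpc3 it was Cdk5rap3, for Cd44 Eif2b3, for Prom1 Ablim1, for Epcam Mrps12 and for Cd24a Siva1. The highest r of each member lay between 0.982 and 0.997.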

How the data were processed

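RNA was sequenced from 3 Control and 3 Sox9cKO samples of mouse biliary epithelial cells. Per the labels' protocols, total RNA was depleted of ribosomal RNA and made into stranded libraries with unique molecular identifiers. The authors deposited a signal per gene, namely gene counts divided by 1 size factor per sample: within a sample, each value equalled a whole number of equal steps (100% of values, tolerance 0.001 reads), which gave back the reads. DESeq2 1.36.0 and the build GRCm39 are listed in the submitters' processing notes. The aligner, the counting program, its use of strand and the use of the molecular identifiers are not given in the sources used here. Every gene in the table had at least 10 reads in total, so rarer genes were not analysed here.

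The test was limma 3.58.1 (R 4.3.3) on log2(value + 1), for genes whose mean over the 6 samples reached 10 normalized reads (trend on the mean level, two-sided, Benjamini-Hochberg adjustment, threshold 0.05). All 7 tested members also had a Control mean above this filter. Alternatives were edgeR 4.0.16 and DESeq2 1.42.0 on the recovered reads, the replicate number as a block, other pseudocounts, filters and scalings, and leaving out each sample. An endothelial covariate was added after the data were examined. The replicate numbers of the labels were used as pairs, but the labels do not state that same-numbered samples belong together. Same-numbered samples deviated together from their group means (correlations of 0.207, 0.472 and 0.542 across 17153 genes). Samples of unlike number had correlations from -0.437 to 0.0476. Deviations within a group are tied to each other, so these correlations are not independent and do not establish a pairing. The members and gene lists were chosen with earlier results of these data known. Named genes were the members, up to 4 called genes per list by p-value, or the lowest p-values up to 2 where fewer were called, and the closest gene to each member. Some results of listed genes, among them 1 gene that the rule names, are not reported here. Other listed genes named in the text were chosen after their values were seen. The longest transcript of each gene came from GENCODE M21 (99.2% of tested genes matched). The scripts were tested on simulated data.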

Additional observations from a re-analysis of the deposited data

How the results depend on the processing

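Ncam1 and Sox9 kept their direction and their call under all 17 alternatives, with log2 fold changes of 3.82 to 4.31 and -0.9997 to -0.88. Epcam, Prom1 and Cd24a passed the threshold in none of them. Fits that paired the samples by replicate block also called Cd44 (log2 fold change 0.68, limma), Tspan8 (0.78 with limma, 0.74 with edgeR) and Gpc3 (1.23 with limma, 1.21 with edgeR). DESeq2 also called Tspan8 (0.75) and Gpc3 (1.26), and the fit with the endothelial covariate Tspan8 (0.87). The limma block left the log2 fold changes of these genes unchanged and lowered their adjusted p. The number of the 8 genes called was thus 4 with the limma block, 3 with the edgeR block, 3 with DESeq2 and 2 with the covariate, against 1. The block changed no call of Ncam1, Epcam, Prom1, Cd24a or Sox9. The sign of Prom1 turned with quantile normalization (-0.035), edgeR (-0.070) and DESeq2 (-0.064).

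Over all genes, 1381 were called with the limma replicate block (868 higher, 513 lower), 1160 with the edgeR replicate block (664 higher, 496 lower) and 1214 with DESeq2 (721 higher, 493 lower), against 510 (349 higher, 161 lower). Each of these 3 sets held all 510. Over the 9 other lists the count was 23, 16 and 16, against 8. The median log2 fold change over tested genes was 0.036, and shifted by less than 0.1 with TMM factors or quantile normalization, and the share of higher calls was 60.6% with quantile normalization, 63.3% with TMM factors and 57.2% with the edgeR block, against 68.4%. The cause was not tested.

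Leaving out 1 sample gave 199 to 387 called genes (152 to 274 higher, 47 to 113 lower), with 2 to 8 in the 9 other lists, fewest without Control replicate 1. The count of all genes was also low without Control replicate 3 (212) and Sox9cKO replicates 2 and 3 (334 and 280), and that over the lists without any sample but Control replicate 2 (5 at most). These fits have fewer samples. Log2 fold changes ranged from -0.36 to 0.30 for Prom1 and from -0.28 to 0.14 for Cd24a, across 0, and from 0.40 to 0.92 for Cd44, 0.66 to 0.92 for Tspan8 and 0.89 to 1.43 for Gpc3. Precision is lowest for Afp (40 reads in all) and Gpc3 (419 reads).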
